A study of Homo sapiens with 12 samples.

Results

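VGF, the granins and their processing partners, and the stanniocalcins were followed in the pancreatic carcinoma line MIA PaCa-2 (human, established) after knockdown of the Musashi RNA-binding proteins. The 8 members were VGF, SCG2, SCG5, CHGB, PCSK1, PCSK1N, STC1 and STC2, taken by symbol from the 24528 genes of the count table. They were chosen by symbol with measured values in view, and which values is not recorded. The change in Msi1-knockdown cells against control, where VGF and STC1 are among the largest rises, was taken to be the one used, but the other comparisons may have been in view too, so their p-values may not be free of that choice. Changes of the 8 members in Msi1-knockdown cells against control are therefore given as a description, with no test.

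The 12 libraries formed 4 groups of 3. Double-knockdown cells carried shRNAs against MSI1 and MSI2, Msi1-knockdown cells an shRNA against MSI1 on a GFP-marked virus, and Msi2-knockdown cells an shRNA against MSI2 on a virus marked with Tomato Red. Control cells carried a scrambled shRNA. Double-knockdown cells were sorted as positive for both markers, and all groups were sorted on viral fluorescence 72 hours after lentiviral infection, so every group, control included, had been infected. No source used here names the marker or gate of the control cells, so sorting and shRNA cannot be told apart. All groups were of 1 cell line, and the labels name no separate cultures for the replicates. The p-values then cover only the spread between libraries, which may be technical.

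VGF and the granins are cargo of dense-core granules, the vesicles in which neurons and endocrine cells store peptides until a stimulus releases them. Precursors such as VGF, secretogranin II and chromogranin B are cut at basic residues by prohormone convertases, of which PCSK1 is a main member, PCSK1N (proSAAS) its inhibitor and SCG5 the chaperone of the related convertase PCSK2. Stanniocalcins are secreted glycoproteins, known from fish as regulators of calcium, and in humans as inhibitors of the pappalysin proteases that free insulin-like growth factors from their binding proteins.

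Total estimated counts ran, in units of 1e6, from 39.9 to 56.1 in double-knockdown cells, 26.8 to 38.9 in Msi1-knockdown cells, 39.7 to 53.01 in Msi2-knockdown cells and 10.9 to 35.04 in control. MSI1 averaged 1.71 ± 0.28, 1.84 ± 0.19, 6.14 ± 0.82 and 4.53 ± 0.40 counts per 1e6 (CPM, mean ± SD, n = 3) in the same order of groups, and MSI2 averaged 11.8 ± 0.6, 53.98 ± 2.28, 14.97 ± 2.36 and 82.7 ± 3.1 CPM. The targeted transcripts were thus lower where their shRNA was given, and against control MSI2 was also lower in Msi1-knockdown cells (log2 change -0.61 ± 0.08, edgeR adjusted p = 6.8e-06) and MSI1 higher in Msi2-knockdown cells (0.41 ± 0.13, adjusted p = 0.0244). The double-knockdown libraries stood apart along the main axis of within-group variation, here called the library trend, with scores of -1.54 to -1.06, against 0.09 to 1.38 in Msi1-knockdown cells, -0.34 to 1.07 in Msi2-knockdown cells and -0.39 to 0.68 in control. The scores keep differences between groups, with means of -1.30, 0.95, 0.33 and 0.03 in the same order of groups. A fit with the trend as a covariate may therefore also take up changes between groups. The part of this trend in the results was not tested, and values with it as a covariate are given where they end a call. Of the labelled carcinoma's markers, KRT8 (1543, 1249, 1169 and 1187 CPM in the double, Msi1 and Msi2 knockdowns and control), KRT18 and VIM were abundant, whereas EPCAM had 1 to 13 counts per library and CDH1 6 to 37. Of 9 neuroendocrine markers, CHGA had 0 to 4 counts per library and INSM1 0 or 1. The list was not silent, since 3 of the 9 had enough counts to be tested. In the same order of groups, ENO2 averaged 53.2, 56.4, 62.0 and 61.4 CPM and SYP 18.8, 27.9, 15.3 and 10.2 CPM. SSTR2 averaged 1.73, 2.53, 2.08 and 1.99 CPM.

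The 8 genes differed widely in level, and 5 of them entered the test. Per transcript length, as CPM per 1000 bases of the longest transcript averaged over the 12 libraries, SCG2 stood highest at 283, followed by VGF at 14.5, STC1 at 3.43, PCSK1N at 1.88 and CHGB at 1.06. SCG5 and STC2 followed at 0.0875 and 0.0078, and PCSK1 at 0. The 5 genes tested had at least 14 counts in every library, whereas the 3 others did not pass the filter on low counts.

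**Figure D1:**
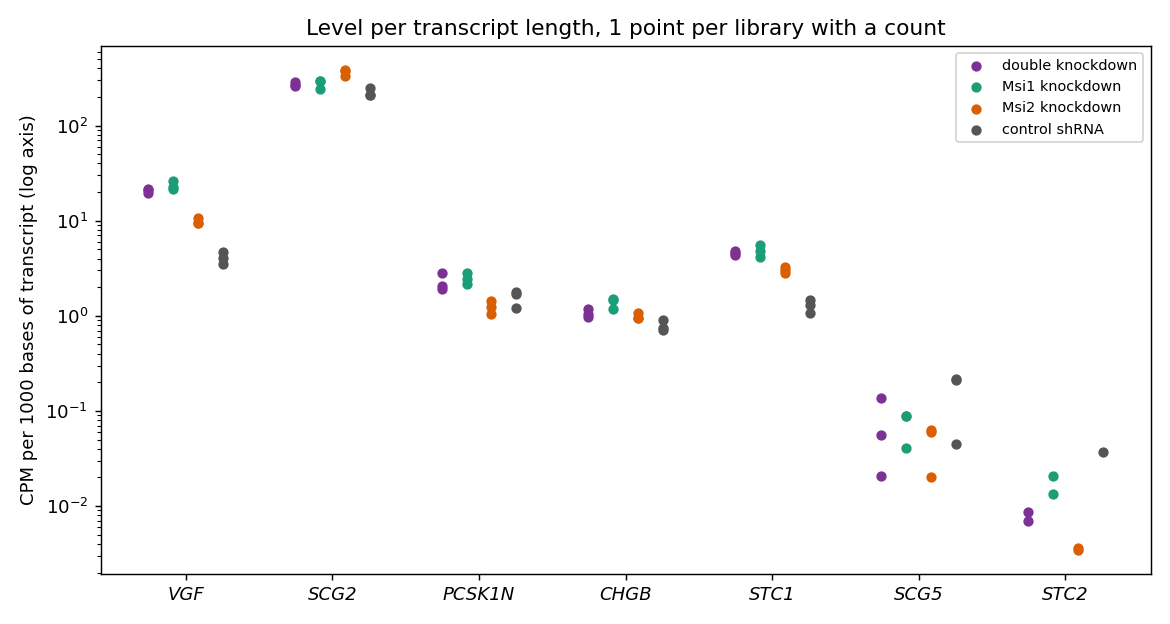
Level of 7 members as CPM per 1000 bases of transcript (log axis), 1 point per library with a count, by group: double, Msi1 and Msi2 knockdown and control shRNA. SCG2 lies far above the others, SCG5 and STC2 lie below 0.3, and PCSK1 had 0 counts in every library and is not drawn.

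VGF, a peptide precursor first found as a gene induced by nerve growth factor, was higher in every knockdown than in control. Its levels were 55.4, 53.7 and 50.1 CPM in double-knockdown cells, 56.1, 67.4 and 58.5 CPM in Msi1-knockdown cells, 24.4, 24.4 and 27.3 CPM in Msi2-knockdown cells, and 9.14, 12.2 and 10.3 CPM in control. The knockdown libraries all lay above the control libraries, every double or Msi1 library lay above every Msi2 library, and the double libraries lay just below the Msi1 libraries. The counts behind these levels were 1934 to 2947, 1611 to 2676, 973 to 1398 and 115 to 371 per library, in the same order of groups.

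The DNA before the starts of VGF and PCSK1 is shown because, among the members with an entry, only their stretches held TGACGTCA. VGF was called in 3 of the 4 tested comparisons, and PCSK1 had no count. Each line gives the 250 bases upstream of the annotated start from RefSeq (build GRCh38.p14, 5′ to 3′ on the gene's strand), with the cAMP response element TGACGTCA in capitals. The VGF stretch is chr7:101165570-101165819 on the minus strand, and that of PCSK1 chr5:96433249-96433498, also minus and the more upstream of its 2 annotated starts.
VGF: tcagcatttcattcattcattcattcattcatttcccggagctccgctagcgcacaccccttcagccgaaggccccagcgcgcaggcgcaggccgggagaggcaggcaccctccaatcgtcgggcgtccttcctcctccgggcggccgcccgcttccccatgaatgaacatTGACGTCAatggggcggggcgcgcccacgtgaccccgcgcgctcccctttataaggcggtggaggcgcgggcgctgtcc
PCSK1: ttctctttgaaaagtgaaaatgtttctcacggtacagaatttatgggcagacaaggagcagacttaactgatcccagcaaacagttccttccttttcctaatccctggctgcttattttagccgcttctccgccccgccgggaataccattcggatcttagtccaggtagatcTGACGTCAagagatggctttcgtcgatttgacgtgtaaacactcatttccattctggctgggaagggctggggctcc
The element begins 79 bases before the VGF start and 77 bases before the PCSK1 start. It reads the same on both strands and occurs in 1.65% of 35116 such upstream stretches. VGF also holds CACGTG, likewise a palindrome, 54 bases before the start, a motif found in 6.34% of the stretches. Of the 8 members, 5 had an entry in the promoter table, and SCG2, CHGB and STC1 had none. The stretches of SCG5, PCSK1N and STC2 and of the other PCSK1 start held no TGACGTCA. These matches describe letters and not bound sites, and the same element stood before a transcript with many counts and before one with none.

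In double-knockdown cells VGF averaged 53.1 ± 2.7 CPM, against 10.6 ± 1.5 CPM in control (SD, n = 3 each), a log2 change of 2.33 ± 0.10 (5.03-fold; edgeR adjusted p = 3.7e-12, over all 15021 genes tested). In Msi2-knockdown cells it averaged 25.4 ± 1.7 CPM, and rose over control by 1.27 ± 0.10 (2.41-fold; edgeR adjusted p = 3.0e-08). In Msi1-knockdown cells the level was 60.6 ± 6.0 CPM and the change 2.52 ± 0.10 (5.75-fold, no test). These 3 comparisons share the control libraries. If low control values entered the choice of members, they raised the changes in double- and Msi2-knockdown cells too. Their p-values may thus not be free of that choice.

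Double- and Msi2-knockdown cells share no library with the comparison of Msi1-knockdown cells with control, and between them the Msi1 shRNA is the labelled difference. MSI2 was also lower in double- than in Msi2-knockdown cells (log2 -0.35 ± 0.09, edgeR adjusted p = 0.0041). VGF was higher in double- than in Msi2-knockdown cells by 1.06 ± 0.08 on the log2 scale (2.09-fold; edgeR adjusted p = 4.1e-08). This call held in all 15 alternatives, with changes of 1.03 to 1.13. Between double- and Msi1-knockdown cells, which differ by the Msi2 shRNA, the change was -0.19 ± 0.08 (95% interval -0.37 to -0.02) and missed the threshold (edgeR adjusted p = 0.0543). It passed in 6 of 15 alternatives, whose adjusted p ran from 0.0139 to 0.801 in all. The VGF change in double-knockdown cells was 1.46 ± 0.13 below the sum of the changes in Msi1- and Msi2-knockdown cells (non-additivity -1.46), a value with no test.

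Some genes listed as markers of other cell types moved beside VGF. The 6 endothelial markers summed to 20.5 to 22.9 CPM in double-knockdown cells, 27.6 to 34.6 CPM in Msi1-knockdown cells, 13.2 to 13.7 CPM in Msi2-knockdown cells and 7.37 to 8.63 CPM in control, the order seen for VGF and STC1. CDH5, at 20.7, 30.5, 12.4 and 6.42 CPM, made up most of this sum, and PECAM1, KDR and TEK had at most 36, 14 and 3 counts in a library. The 7 blood cell markers summed to 46.8 to 50.96 CPM, 35.3 to 41.7 CPM, 45.6 to 46.1 CPM and 16.4 to 18.5 CPM in the same order, nearly all of it CD68, with PTPRC at 0 to 4 counts and CD3E at 0. The 7 fibroblast markers summed to 549 to 642, 660 to 804, 775 to 887 and 603 to 738 CPM. Nearly all of this was COL1A2 (309, 366, 449 and 435 CPM) and COL3A1 (292, 385, 369 and 226 CPM), which in double-knockdown cells against control changed by -0.49 ± 0.09 and 0.37 ± 0.10 (edgeR adjusted p = 1.1e-04 and 0.0033), and the other fibroblast markers averaged at most 1.61 CPM in a group. The 5 neuronal genes of packaging cells summed to at most 0.302 CPM. The part of these cells in the results was not tested, and in bulk RNA fewer cells of a type and less RNA per cell cannot be told apart.

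**Figure D2:**
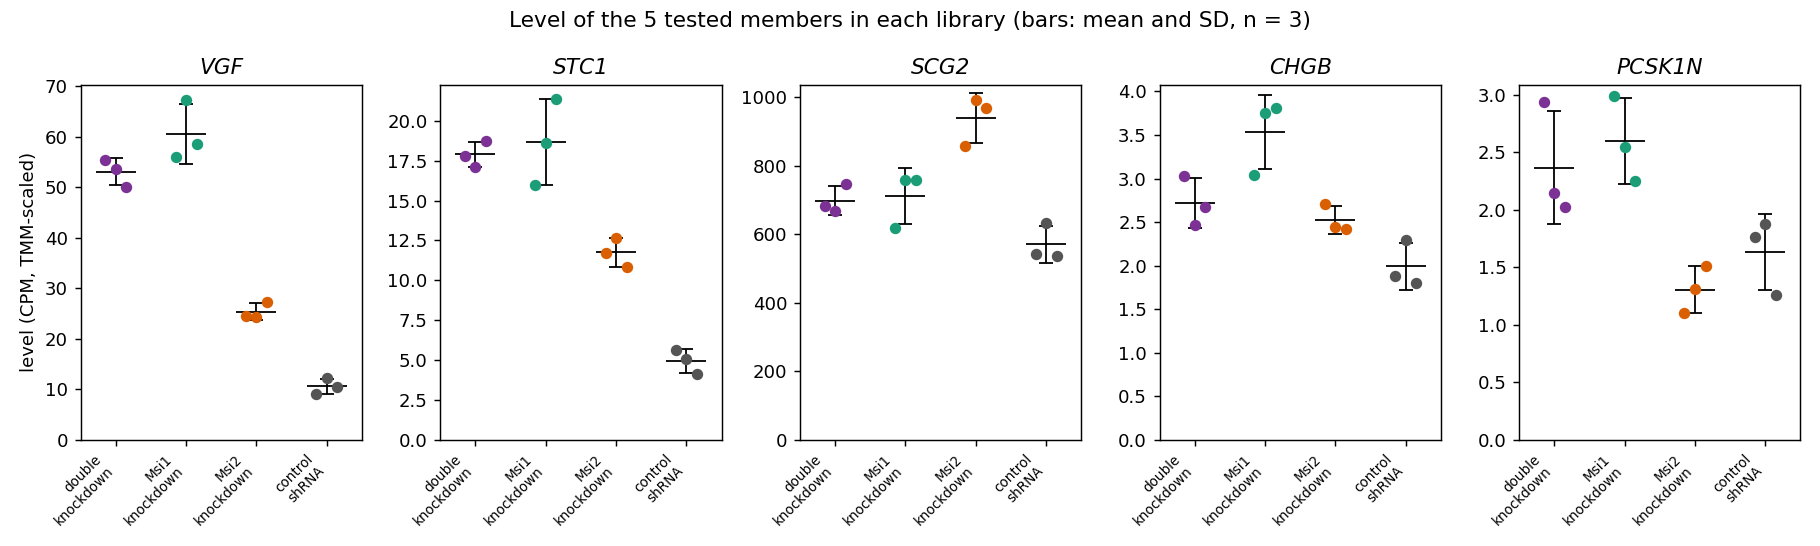
Level in CPM (linear axis from 0) of the 5 tested members in each library, with mean and SD of 3 libraries, for the double, Msi1 and Msi2 knockdowns and control. VGF and STC1 share an order of groups, with control lowest, whereas SCG2 is highest in Msi2-knockdown cells (939.6 ± 71.9 CPM).

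SCG2 encodes secretogranin II, the precursor of secretoneurin, and was the most abundant member in every library. Its levels were 682, 667 and 746 CPM in double-knockdown cells, 618, 759 and 758 CPM in Msi1-knockdown cells, 858, 991 and 970.0 CPM in Msi2-knockdown cells, and 542, 633 and 537 CPM in control. The Msi2 libraries lay above all the other libraries, and the lowest Msi1 library lay below the highest control library.

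SCG2 rose in Msi2-knockdown cells, to 939.6 ± 71.9 CPM, against 571 ± 53.9 CPM in control (log2 0.72 ± 0.09, 1.65-fold; edgeR adjusted p = 7.9e-06). In double-knockdown cells, at 698 ± 41.9 CPM, it was higher than control by 0.29 ± 0.09 (1.22-fold; edgeR adjusted p = 0.0117), a call lost without double-knockdown replicate 3 (0.0790), control replicate 1 (0.0597) or control replicate 3 (0.0666). Its change in Msi1-knockdown cells was 0.32 ± 0.09 (no test). SCG2 was lower in double- than in Msi2-knockdown cells, by a log2 change of -0.43 ± 0.09 (1.35-fold lower; edgeR adjusted p = 8.7e-04), so that here adding the Msi1 shRNA went with less SCG2 and more VGF. With the library trend as a covariate this SCG2 difference was -0.17 (edgeR adjusted p = 0.156). Between double- and Msi1-knockdown cells the change was -0.03 ± 0.09, with a 95% interval of -0.22 to 0.16 (edgeR adjusted p = 0.813), and its sign turned once the library trend was a covariate (0.34, adjusted p = 0.0534).

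The balance of the 2 precursors differed between groups. There were 13.2 ± 1.5 SCG2 counts per VGF count in double-knockdown cells, 11.7 ± 1.1 in Msi1-knockdown cells, 37.1 ± 3.1 in Msi2-knockdown cells and 54.4 ± 4.3 in control (SD, n = 3 each). The ranges of the double and Msi1 libraries overlapped, and those of the other groups lay apart from them and from each other. Library scaling does not enter this ratio, since both counts come from the same library.

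CHGB, chromogranin B, a granule matrix protein, was weakly expressed, with 103 to 161 counts in a library of double-knockdown cells, 105 to 149 in Msi1-knockdown cells, 108 to 131 in Msi2-knockdown cells and 20 to 70 in control. Its levels were 3.03, 2.47 and 2.67 CPM in double-knockdown cells, 3.04, 3.75 and 3.81 CPM in Msi1-knockdown cells, 2.71, 2.44 and 2.43 CPM in Msi2-knockdown cells, and 1.88, 2.30 and 1.80 CPM in control. Each knockdown library lay above each control library, and each Msi1 library above each double and Msi2 library. The double-knockdown level passed against control (log2 0.43 ± 0.15, edgeR adjusted p = 0.0256) and against Msi1-knockdown cells (-0.37 ± 0.14, edgeR adjusted p = 0.0263).

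Both CHGB calls were marginal. That against control was lost in 6 of 15 alternatives, with adjusted p up to 0.429 in thinned libraries, and without double-knockdown replicate 1 (0.108), control replicate 1 (0.120) or control replicate 3 (0.0637). That against Msi1-knockdown cells was lost in 6 of 15, without double-knockdown replicate 2 (0.0845) or 3 (0.0527), without Msi1-knockdown replicate 2 (0.0928) or 3 (0.0851), with DESeq2 (0.0643) and when the library trend was a covariate (-0.08, 0.921). The change in Msi2-knockdown cells against control was 0.31 ± 0.16, with a 95% interval of -0.01 to 0.64 (edgeR adjusted p = 0.14), and that in double- against Msi2-knockdown cells 0.12 ± 0.14 (interval -0.17 to 0.40, adjusted p = 0.502). In Msi1-knockdown cells the change from control was 0.80 ± 0.15 (no test).

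SCG5, the chaperone of PCSK2, was at the edge of detection. It had 9, 3 and 1 counts in double-knockdown cells, 4, 2 and 3 in Msi1-knockdown cells, 1, 4 and 4 in Msi2-knockdown cells, and 2, 8 and 3 in control. Summed over 3 libraries these were 0.0924, 0.0885, 0.0621 and 0.172 counts per 1e6, with exact Poisson 95% intervals of 0.0492 to 0.158, 0.0405 to 0.168, 0.0284 to 0.118 and 0.0914 to 0.293. The intervals cover counting error only, and no test between groups was made at these counts.

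PCSK1, the convertase, had 0 counts in all 12 libraries. A count of 0 allows up to 3 counts as a one-sided 95% limit, which is 0.0213 counts per 1e6 over the double-knockdown libraries, 0.0295 in Msi1-knockdown cells, 0.0207 in Msi2-knockdown cells and 0.0396 in control. PCSK2 had at most 6 counts in a library. Other convertases, named after their values were seen, were present, among them FURIN (45.3, 44.6, 54.4 and 44.1 CPM in the double, Msi1 and Msi2 knockdowns and control), which acts in the constitutive secretory route.

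PCSK1N, the inhibitor, was detected where the enzyme it inhibits was not. Its levels were 2.93, 2.14 and 2.02 CPM in double-knockdown cells, 2.99, 2.54 and 2.25 CPM in Msi1-knockdown cells, 1.10, 1.31 and 1.51 CPM in Msi2-knockdown cells, and 1.77, 1.87 and 1.26 CPM in control, from 14 to 156 counts per library. The double and Msi1 libraries lay above all Msi2 and control libraries, and the Msi2 and control libraries overlapped. PCSK1N was the only one of the 5 tested members whose mean was lower in Msi2-knockdown cells than in control.

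PCSK1N was higher in double- than in Msi2-knockdown cells by 0.86 ± 0.18 on the log2 scale (1.81-fold; edgeR adjusted p = 7.7e-04), which with the library trend as a covariate was 0.58 (adjusted p = 0.118). Against control double-knockdown cells was higher by 0.48 ± 0.19 (edgeR adjusted p = 0.0435). That call was lost in 9 of 15 alternatives, without double-knockdown replicate 1 (0.255), without each control replicate (0.0617 to 0.124) and with DESeq2 (0.0756) among them. The change was smallest once the library trend was a covariate, at 0.23 (adjusted p = 0.503). The change in Msi2-knockdown cells was -0.38 ± 0.21 (95% interval -0.81 to 0.05, edgeR adjusted p = 0.179), that in double- against Msi1-knockdown cells -0.13 ± 0.17 (interval -0.49 to 0.23, adjusted p = 0.541), and that in Msi1-knockdown cells against control 0.61 ± 0.20 (no test).

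STC1, a secreted stanniocalcin, followed the same order of groups as VGF. Its levels were 17.8, 17.1 and 18.7 CPM in double-knockdown cells, 15.99, 18.6 and 21.4 CPM in Msi1-knockdown cells, 11.7, 12.7 and 10.9 CPM in Msi2-knockdown cells, and 5.63, 5.06 and 4.13 CPM in control. Each knockdown library lay above each control library, each double or Msi1 library above each Msi2 library, and the double and Msi1 libraries overlapped. The counts ran from 46 in control replicate 3 to 947 in double-knockdown replicate 1.

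STC1 averaged 17.9 ± 0.8 CPM in double-knockdown cells and 4.94 ± 0.76 CPM in control, a log2 change of 1.80 ± 0.12 (3.49-fold; edgeR adjusted p = 6.0e-10). It rose in Msi2-knockdown cells by 1.20 ± 0.12 (11.7 ± 0.9 CPM, 2.29-fold; edgeR adjusted p = 4.1e-07). In double-knockdown cells it was higher than in Msi2-knockdown cells by 0.61 ± 0.10 (1.52-fold; edgeR adjusted p = 7.2e-05). These 3 calls held in every alternative. Those against control use the same control libraries as the Msi1-knockdown comparison, so their p-values may not be free of the choice of members. Between double- and Msi1-knockdown cells the change was -0.06 ± 0.10 (95% interval -0.25 to 0.14, edgeR adjusted p = 0.633), or 0.36 (adjusted p = 0.142) once the library trend was a covariate. In Msi1-knockdown cells STC1 averaged 18.7 ± 2.7 CPM, a change of 1.86 ± 0.12 from control (3.63-fold, no test), and its non-additivity was -1.25 ± 0.15 (no test).

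STC2, the other human stanniocalcin, had 2, 2 and 0 counts in double-knockdown cells, 4, 0 and 2 in Msi1-knockdown cells, 0, 1 and 1 in Msi2-knockdown cells, and 0, 6 and 0 in control. It was thus seen in 7 of 12 libraries, and no test between groups was made. Of the pair, STC1 alone was expressed at a level that could be followed.

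**Figure D3:**
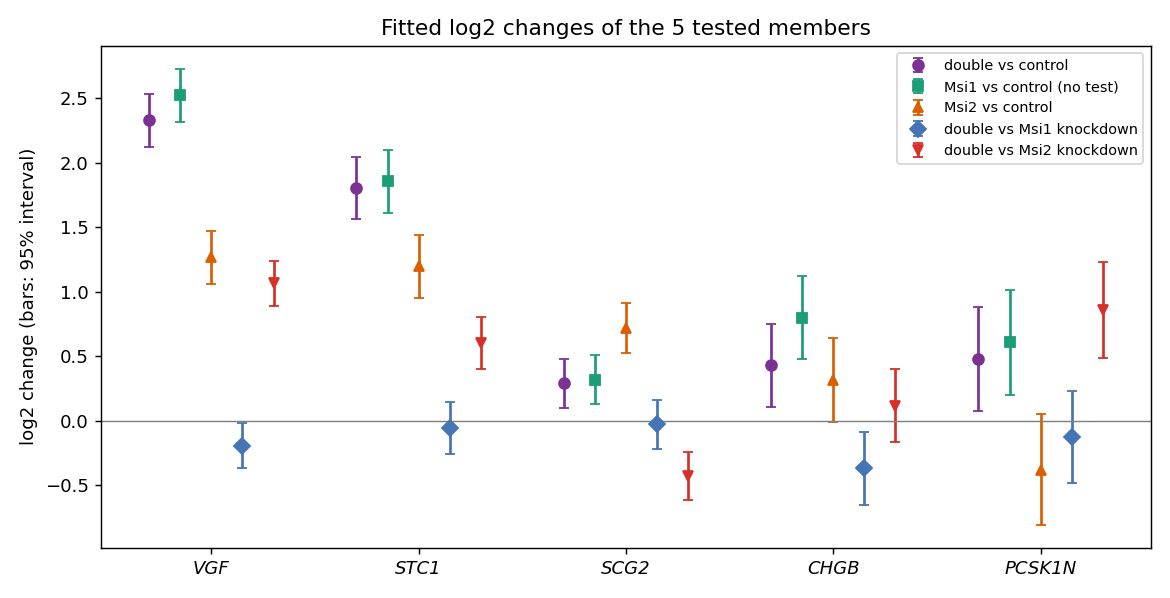
Fitted log2 changes of the 5 tested members with 95% intervals, in 5 comparisons: double, Msi1 and Msi2 knockdown against control, and double against Msi1 and Msi2 knockdown. The VGF and STC1 changes lie above 1 against control, whereas the double-against-Msi2 value is positive for VGF (1.06) and negative for SCG2 (-0.43).

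Read against all genes, the counts of calls were as follows. In double-knockdown cells against control 5 of the 5 tested members were higher, where 26.6% of 15021 genes were called higher, 25.3% lower and 51.9% in either direction, and the members' median log2 change was 0.48, against -0.02 over all genes. Msi2-knockdown cells had 3 of 5 higher and 0 lower than control, where 16.7% of genes were higher, 13.6% lower and 30.3% called in either direction (median 0.72, against 0.00). For double- against Msi2-knockdown cells 3 of 5 were higher and 1 lower, where the shares of genes were 22.7% and 22.5%, together 45.2% (median 0.61, against -0.02). For double- against Msi1-knockdown cells 0 were higher and 1 lower, where the shares were 29.9% and 26.2%, together 56.0% (median -0.13, against 0.00).

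Libraries of the 2 groups did not overlap for 5 of the 5 tested members in double-knockdown cells against control, where this held for 59.6% of all genes, and for 4 of 5 in Msi2-knockdown cells against control (38.7% of genes). It held for 4 of 5 between double- and Msi2-knockdown cells (55.5%) and for 2 of 5 between double- and Msi1-knockdown cells (63.6%). For Msi1-knockdown cells against control, which was taken to bear on the choice of members, it was 4 of 5, where 47.2% of genes did not overlap. Since the members were chosen with results known and calls were common, these counts say nothing particular to the members.

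**Figure D4:**
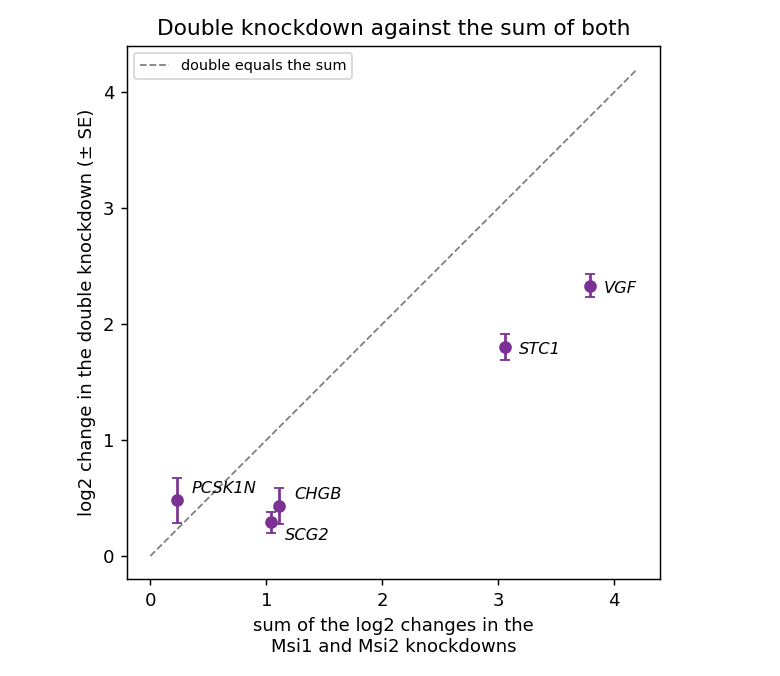
Log2 change in double-knockdown cells (± SE) against the Msi1-knockdown and Msi2-knockdown changes added together, all against control, for the 5 tested members. VGF, STC1, SCG2 and CHGB lie below the line on which both are equal, by 1.46 for VGF, and PCSK1N lies 0.25 above it. No distance from the line was tested, and the choice of members may favour places below it.

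The double-knockdown change fell short of the sum of both others in 4 of the 5 tested members. The share of all genes that fell short was not counted. The sum holds the change in Msi1-knockdown cells against control, taken to be used in the choice of members. That choice would favour a shortfall, so the count is a description. Besides VGF and STC1, the non-additivity was -0.75 ± 0.13 for SCG2, -0.68 ± 0.21 for CHGB and 0.25 ± 0.27 for PCSK1N, none of them tested. With the library trend as a covariate it was -1.36 for VGF, -0.79 for STC1, -0.34 for SCG2, -0.36 for CHGB and -0.16 for PCSK1N.

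Over the 12 libraries, Pearson's r of log2 CPM was 0.96 between VGF and STC1, 0.86 between VGF and CHGB and 0.34 between VGF and SCG2, as a description of libraries that share groups. Among 10542 other genes above 5 CPM, the patterns most like VGF were those of ATG16L1 (r = 0.99), CTSL (0.98) and TNFRSF12A (0.98). ATG16L1, an autophagy factor, averaged 65.8, 67.4, 56.3 and 43.5 CPM in the double, Msi1 and Msi2 knockdowns and control, a far smaller span than that of VGF. For STC1 they were NPTX1 (0.99), GRAMD1B (0.98) and ADGRG1 (0.98), where NPTX1, a secreted neuronal pentraxin, averaged 22.1, 23.7, 17.8 and 9.56 CPM in the same order. For SCG2, a search added after its values were seen, they were TMED4 (0.99), CERS2 (0.99) and EPHA2 (0.97).

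The genes around these cargoes moved in both directions, and their counts are read against the shares and medians of all genes given above. Once the library trend was a covariate, calls over all genes fell to 1238 higher and 1459 lower in double- against Msi2-knockdown cells and to 400 and 318 in double- against Msi1-knockdown cells, and the lists were not counted anew under it. Of 20 listed genes of prohormone processing and granule cargo, 15 were tested. Against control, 2 of them rose and 7 fell in double-knockdown cells (median log2 -0.19), in Msi2-knockdown cells 4 rose and 1 fell (0.08), and in double- against Msi2-knockdown cells 1 rose and 7 fell (-0.26). QPCT, the glutaminyl cyclase that caps peptide ends, rose to 14.6 ± 0.8 CPM in double-knockdown cells, against 7.33 ± 0.16 CPM in control (log2 0.99 ± 0.09, edgeR adjusted p = 3.0e-08). Carboxypeptidase E (CPE), which trims the basic residues the convertases leave, fell to 8.05 ± 0.48 CPM in double-knockdown cells, against 14.2 ± 0.9 CPM in control (-0.83 ± 0.09, edgeR adjusted p = 2.2e-07). In double- against Msi1-knockdown cells 0 of the 15 rose and 11 fell (-0.49), among them the amidating enzyme PAM (106 ± 5 CPM, against 155 ± 14 CPM in Msi1-knockdown cells; -0.55 ± 0.08, edgeR adjusted p = 1.3e-05).

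Of 29 tested genes of granule biogenesis and exocytosis, 8 rose and 9 fell in double-knockdown cells against control (median -0.18), 5 rose and 7 fell in Msi2-knockdown cells (-0.12), 4 rose and 5 fell in double- against Msi2-knockdown cells (-0.01), and 6 rose and 6 fell in double- against Msi1-knockdown cells (-0.04). The effector SYTL2 averaged 13.4 ± 0.9 CPM in double-knockdown cells and 7.89 ± 1.24 CPM in control (0.72 ± 0.10, edgeR adjusted p = 9.3e-06), whereas the calcium sensor SYT1 averaged 13.9 ± 1.6 CPM in double-knockdown cells and 22.2 ± 2.8 CPM in control (-0.68 ± 0.10, edgeR adjusted p = 2.4e-05).

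Most other peptide genes had too few counts to be tested. Of 37 peptide hormones and neuropeptides 10 were tested and 8 had no count in any library. Of those tested, 6 rose and 0 fell in double-knockdown cells against control (median 0.54), 2 rose and 0 fell in Msi2-knockdown cells (0.20), 5 rose and 0 fell in double- against Msi2-knockdown cells (0.31), and 3 rose and 2 fell in double- against Msi1-knockdown cells (-0.03). Galanin (GAL), a neuropeptide, averaged 54.9 ± 2.5 CPM in double-knockdown cells and 30.4 ± 1.8 CPM in control (0.85 ± 0.07, edgeR adjusted p = 3.4e-08). Neuromedin B (NMB) averaged 20.5 ± 2.4 CPM in double-knockdown cells and 12.03 ± 0.87 CPM in Msi2-knockdown cells (0.77 ± 0.09, edgeR adjusted p = 2.1e-06).

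Neuroendocrine transcription factors were few, with 6 of 17 tested and 5 without a count in any library. Of these, 1 rose and 2 fell in double-knockdown cells against control (median 0.22), 3 rose and 0 fell in Msi2-knockdown cells (0.34), 0 rose and 2 fell in double- against Msi2-knockdown cells (-0.20), and 3 rose and 0 fell in double- against Msi1-knockdown cells (0.28). REST, a repressor of neuronal genes in non-neuronal cells, averaged 50.6 ± 4.1 CPM in double-knockdown cells, 48.5 CPM in Msi1-knockdown cells, 63.5 ± 3.2 CPM in Msi2-knockdown cells and 70.6 ± 3.5 CPM in control. It fell in double-knockdown cells against control (-0.49 ± 0.07, edgeR adjusted p = 6.8e-06) and against Msi2-knockdown cells (-0.33 ± 0.07, edgeR adjusted p = 4.7e-04). Of the 9 neuroendocrine markers 3 were tested. Against control, 1 rose and 1 fell in double-knockdown cells, and 1 rose and 0 fell in Msi2-knockdown cells. In double- against Msi2-knockdown cells 1 rose and 1 fell, and in double- against Msi1-knockdown cells 0 rose and 2 fell. Synaptophysin (SYP), a vesicle membrane protein, averaged 18.8 ± 0.5 CPM in double-knockdown cells, 27.9 ± 2.2 CPM in Msi1-knockdown cells, 15.3 ± 1.4 CPM in Msi2-knockdown cells and 10.2 ± 2.0 CPM in control. SYP rose in double-knockdown cells over control (0.84 ± 0.10, edgeR adjusted p = 2.3e-06) and in Msi2-knockdown cells over control (0.54 ± 0.11, adjusted p = 5.8e-04). In double-knockdown cells SYP was higher than in Msi2-knockdown cells (0.30 ± 0.09, edgeR adjusted p = 0.0140) and lower than in Msi1-knockdown cells (-0.57 ± 0.09, adjusted p = 6.7e-05). ENO2 fell in double-knockdown cells against control (-0.21 ± 0.06, edgeR adjusted p = 0.0097) and against Msi2-knockdown cells (-0.22 ± 0.06, adjusted p = 0.0067).

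The summed neuroendocrine markers, mostly ENO2 and SYP, ran from 71.6 to 76.8 CPM in double-knockdown cells, 82.99 to 90.1 CPM in Msi1-knockdown cells, 74.6 to 82.5 CPM in Msi2-knockdown cells and 70.9 to 76.7 CPM in control, and islet hormones stayed at or below 0.201 CPM in sum.

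Among genes linked to cAMP and the factor CREB, 25 of 28 matched genes were tested. Against control, 17 rose and 3 fell in double-knockdown cells (median 0.49). In Msi2-knockdown cells 10 rose and 4 fell (0.26), in double- against Msi2-knockdown cells 12 rose and 1 fell (0.19), and in double- against Msi1-knockdown cells 10 rose and 2 fell (0.22). EGR3, an immediate early transcription factor, averaged 11.2 ± 0.4 CPM in double-knockdown cells, 14.9 CPM in Msi1-knockdown cells, 3.85 ± 0.06 CPM in Msi2-knockdown cells and 3.20 ± 0.09 CPM in control. It rose in double-knockdown cells over control (1.79 ± 0.09, edgeR adjusted p = 4.2e-11) and over Msi2-knockdown cells (1.53 ± 0.08, edgeR adjusted p = 2.9e-10). NR4A1, a nuclear receptor induced by cAMP, rose to 7.29 ± 0.32 CPM in Msi2-knockdown cells, against 2.39 ± 0.44 CPM in control (1.54 ± 0.13, edgeR adjusted p = 6.2e-08), and FOS fell to 2.98 ± 0.28 CPM, against 10.2 ± 2.4 CPM in control (-1.81 ± 0.14, edgeR adjusted p = 2.0e-08).

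**Figure D5:**
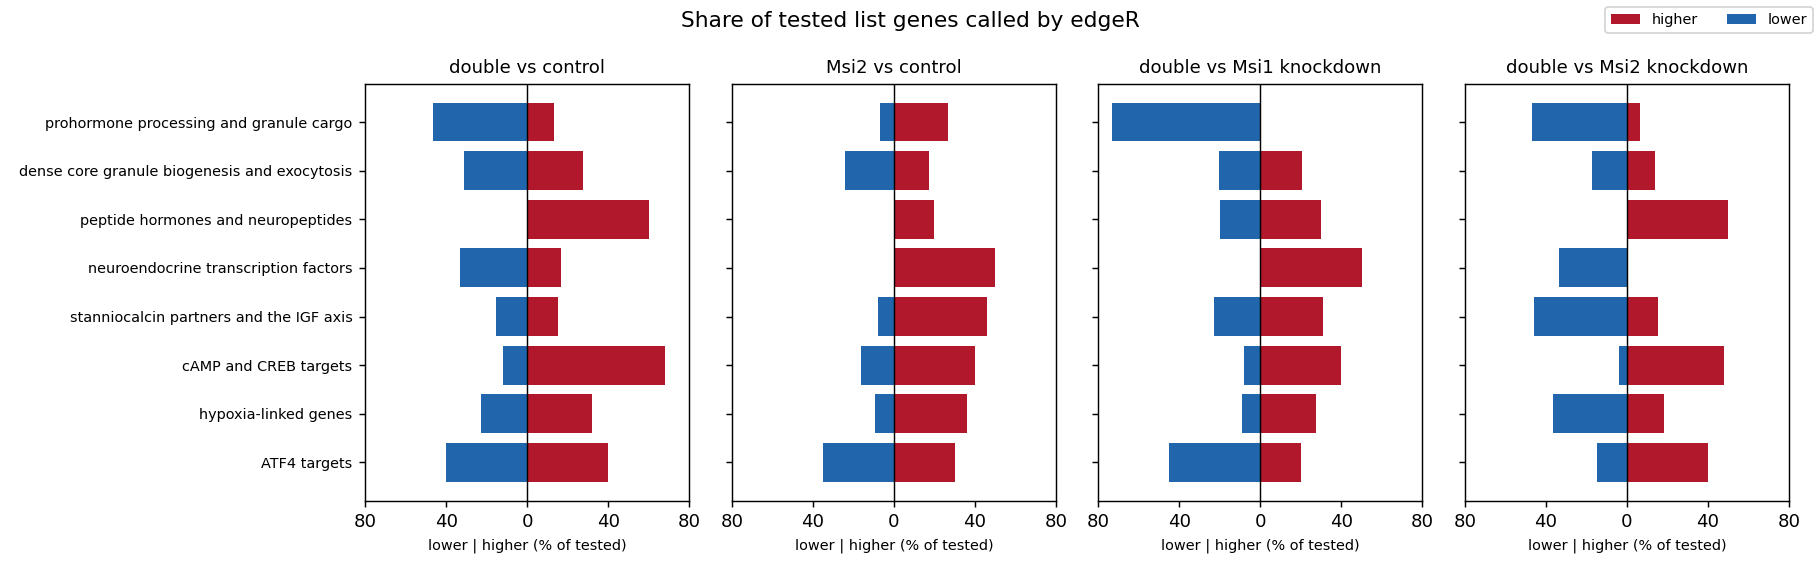
Share of the tested genes of 8 lists called higher (right) or lower (left) by edgeR at an adjusted p of 0.05, in 4 comparisons. In double-knockdown cells against control, 17 of 25 genes of the cAMP and CREB list were higher and 3 lower. Of 15 genes of the prohormone processing list, 2 were higher and 7 lower. Among all 15021 genes tested, 26.6% were called higher and 25.3% lower in that comparison.

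Of the stanniocalcin partners and the IGF axis, 13 of 17 were tested. Against control, 2 rose and 2 fell in double-knockdown cells (median 0.04) and 6 rose and 1 fell in Msi2-knockdown cells (0.29). For double- against Msi2-knockdown cells 2 rose and 6 fell (-0.17), and for double- against Msi1-knockdown cells 4 rose and 3 fell (0.01). IGFBP4 is a binding protein that a pappalysin cuts. It averaged 18.3 ± 1.0 CPM in double-knockdown cells, 14.3 CPM in Msi1-knockdown cells, 24.0 ± 1.8 CPM in Msi2-knockdown cells and 12.6 ± 1.4 CPM in control. It rose in Msi2-knockdown cells (0.94 ± 0.09, edgeR adjusted p = 4.4e-07) and in double-knockdown cells (0.54 ± 0.09, edgeR adjusted p = 9.7e-05) over control. IGF2 rose over control in both as well. In Msi2-knockdown cells the change was 0.58 ± 0.08 (24.0 ± 1.2 CPM, against 16.2 ± 1.2 CPM in control, edgeR adjusted p = 2.4e-05). In double-knockdown cells it was 0.54 ± 0.08 (edgeR adjusted p = 2.0e-05). The IGF2 mean in Msi1-knockdown cells was 12.8 ± 1.1 CPM, lower than in control. Double-knockdown cells had more IGF2 than Msi1-knockdown cells (0.87 ± 0.08, edgeR adjusted p = 3.3e-07). The pappalysin transcripts themselves were rare, with at most 16 counts of PAPPA and 2 of PAPPA2 in a library.

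STC1 and STC2 are known as genes that respond to low oxygen, and STC2 also as one that responds to ATF4. Of 22 tested hypoxia-linked genes, 7 rose and 5 fell in double-knockdown cells against control (median 0.09), 8 rose and 2 fell in Msi2-knockdown cells (0.17), 4 rose and 8 fell in double- against Msi2-knockdown cells (-0.07), and 6 rose and 2 fell in double- against Msi1-knockdown cells (-0.07). The glucose transporter SLC2A3 averaged 133 ± 3, 105, 150 ± 12 and 46.0 ± 4.8 CPM in the double, Msi1 and Msi2 knockdowns and control. It rose in double-knockdown cells over control (1.54 ± 0.09, edgeR adjusted p = 1.0e-10). NDRG1 averaged 13.3 ± 0.8, 8.83 ± 0.58, 18.8 ± 1.8 and 16.6 CPM in the same order. In double-knockdown cells NDRG1 was lower than in Msi2-knockdown cells (-0.50 ± 0.08, edgeR adjusted p = 1.2e-04). It was higher there than in Msi1-knockdown cells (0.58 ± 0.09, edgeR adjusted p = 4.9e-05). Of 20 ATF4 targets 8 rose and 8 fell in double-knockdown cells against control (median 0.12), 6 rose and 7 fell in Msi2-knockdown cells (0.05), 8 rose and 3 fell in double- against Msi2-knockdown cells (0.05), and 4 rose and 9 fell in double- against Msi1-knockdown cells (-0.04).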

How the data were processed

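RNA was sequenced from 12 libraries of sorted MIA PaCa-2 cells, 3 per group, grouped by sample title. The authors deposited estimated counts for each gene, rounded to whole numbers and without scaling. Per the submitters' processing notes, which give no roles, the tools were kallisto 0.42.1 and CASAVA 1.4 and the build hg19. No source used here gives the transcript set, how transcripts were summed to genes, or whether strand was kept. Kallisto splits reads shared between transcripts by a likelihood model, so overlapping and near-identical transcripts depend on that split. All 12 columns were used.

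Counts were tested as deposited with edgeR 4.0.16 (R 4.3.3). Genes passing filterByExpr (minimum count 10), 15021 of 24528, were scaled by TMM and fitted in 1 robust quasi-likelihood model with a mean per group (8 residual degrees of freedom). P-values are two-sided and adjusted by Benjamini-Hochberg over all tested genes, with a threshold of 0.05. Exact permutation of 3 against 3 libraries cannot go below p = 0.1, so none was used. Levels are CPM of the TMM-scaled total, mean ± SD. Changes are log2 values ± SE (the change over the square root of F), with 95% intervals from the t distribution of the model. Replicate libraries differed by more than sampling noise (chi-square over its degrees of freedom from 3.83 to 36.2). Transcript lengths are the longest of GENCODE 29 (build GRCh38), and promoter stretches were read by symbol from RefSeq, since the count table has no coordinates. The library trend uses the first component of deviations from group means, over genes above 3 log2 CPM with a prior count of 2, holding 54.1% of their variance. Its scores place each library, centred per gene over all libraries and not per group, on that component, so they keep differences between groups.

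The members, lists, comparisons and alternatives were chosen with earlier results of these data known. The alternatives were other scaling (DESeq2 size factors, upper quartile), DESeq2 1.42.0, no filter, a minimum count of 50, only the compared groups, each library left out, a replicate block, libraries thinned to the shallowest, and the library trend as a covariate. Named genes were all members, MSI1 and MSI2, up to 3 called genes of the largest change above 5 CPM per list, and the 3 closest patterns for VGF and STC1. SCG5 and STC2 did not pass the filter and have none. Of 200 list entries 198 matched the table. Replicate numbers paired no groups by label. Deviations of same-numbered libraries correlated above 0.1 in all 3 pairs of the Msi2 knockdown with control (0.18, 0.68 and 0.41), and in 10 of 18 pairs over all groups (-0.54 to 0.70). The scripts were tested on simulated counts.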

Additional observations from a re-analysis of the deposited data

Results flagged for a closer look

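The Msi2 shRNA went with opposite shifts of VGF in the 2 settings where it was given. The 3 Msi2-knockdown libraries lay above the 3 control libraries (log2 1.27), whereas the 3 double-knockdown libraries lay below the 3 Msi1-knockdown libraries (log2 -0.19, a change that did not pass the threshold). CHGB showed the same pattern, with 0.31 in the Msi2 knockdown against control, which did not pass, and -0.37 in the double against the Msi1 knockdown, which did (edgeR adjusted p = 0.0263). The difference between the 2 settings was not tested for either gene. Members chosen for high levels in Msi1-knockdown cells and low levels in control would be moved by that choice in these directions in both settings, so the opposite signs are a description. Libraries of the compared groups did not overlap, in either direction, for 38.7% of all genes in the Msi2 knockdown against control and for 63.6% in the double against the Msi1 knockdown.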

How the results depend on the processing

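Of 305 values of the members in tested comparisons under an alternative, 266 kept their direction and their side of the threshold, 26 lost a call, 6 gained one and 7 reversed, none of these called. For double- against Msi1-knockdown cells SCG2 (-0.03) became 0.34 and STC1 (-0.06) 0.36 with the library trend, and STC1 became 0.014 in thinned libraries. With a library left out SCG2 ran from -0.12 to 0.013 (positive without Msi1-knockdown replicate 2 or 3) and STC1 from -0.15 to 0.040 (positive without Msi1-knockdown replicate 3). For double- against Msi2-knockdown cells CHGB (0.12) became -0.16 in thinned libraries. VGF and STC1 lost no call in any alternative, and VGF gained all 6. The number of members called in double-knockdown cells against control was 5, but 3 with upper-quartile factors, with thinned libraries and with DESeq2, 4 with the library trend or a stricter filter, and 2 to 5 with a library left out. For double- against Msi2-knockdown cells it was 4, but 2 once the library trend was a covariate, where 1238 genes were higher and 1459 lower (3413 and 3379 without it). For double- against Msi1-knockdown cells it was 1, and 2 with DESeq2 size factors, upper-quartile factors, the stricter filter, the replicate block or only the compared groups. It was 0 with DESeq2 and with the library trend, where 400 genes were higher and 318 lower (4486 and 3933 without it), and 0 to 2 with a library left out. In the Msi2 knockdown, 2501 genes were higher, and 1646 to 2307 with a library left out, the lowest without control replicate 1. With the replicate block the VGF change in the double against the Msi1 knockdown was -0.19 (edgeR adjusted p = 0.0406), and the block changed no other call of a member, also in a fit of the Msi2 and control libraries alone, added after the data were seen. The causes of these shifts were not tested. Counts of 0 to 9 limit SCG5, STC2 and PCSK1.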
